A study of Rattus norvegicus with 10 samples.

Results

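Kv1 and Kv7 potassium channels are represented here by 8 genes: the Kv1 pore subunits Kcna1, Kcna2 and Kcna4, the Kv1 accessory subunits Kcnab1 and Kcnab2, the Kv7 pore subunits Kcnq3 and Kcnq5, and Lgi1, a secreted protein of the Kv1 complex. The members were found as the rows of the deposited count matrix whose RefSeq RNA record belongs to these gene symbols. If a symbol had several rows, the one with the highest mean count was to be taken, but each of the 8 had exactly 1 row, so the members are 8 of 32041 RNA records. All 8 passed the filter on low counts.

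The data are mRNA counts from the hippocampus of 10 adult male Sprague-Dawley rats, 5 with traumatic brain injury (TBI) and 5 sham-operated. TBI was induced by lateral fluid percussion, in which a fluid pulse strikes the intact dura through an opening in the skull over the left parietal lobe. The labels give a mean impact of 3.32 atm. Sham rats received the same anaesthesia (a mixture with pentobarbital and chloral hydrate) and the same craniectomy but no impact, so both groups carry the effects of surgery. The left hippocampus was taken 3 months later and the piece containing CA3 and dentate gyrus was used; the labels call the tissue dorsal hippocampus. Each animal was processed individually, so each library is 1 rat. The paper states that the injured rats were not monitored by EEG and had no handling-related seizures. It cites earlier data that only a minority of rats have epilepsy at this time. Which of these rats had seizures is not known.

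Kv1 channels are tetramers of pore-forming alpha subunits that open near threshold and are concentrated along axons, at the juxtaparanodes of myelinated fibres and near terminals, where they limit repetitive firing and transmitter release. Cytoplasmic Kvbeta subunits bind the alpha tetramer, help it reach the membrane, and in the case of Kvbeta1 speed its inactivation. Kv7 channels with Kcnq3 or Kcnq5 subunits carry the M current, a slow current that muscarinic receptors suppress and that restrains bursts. LGI1 is secreted by neurons and binds the receptors ADAM22 and ADAM23, and loss-of-function variants in several of these genes cause inherited epilepsies or episodic ataxia.

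Between 23425817 and 31671838 counts fell on RNA records in each library. Ribosomal RNA rows took 59.0% of the counts of sham replicate 4 and 58.3% of those of sham replicate 5, against 12.5 to 26.2% in the other 8 rats. No TBI library had so high a share, so this difference cannot be fully told apart from the groups. Levels are given as CPM, counts scaled to the library size that TMM normalization sets, which lets a gene be compared between rats but not with another gene, since transcript lengths were not used. Log2 changes are TBI over sham. In bulk tissue, fewer cells of a type and less RNA per cell cannot be told apart.

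The comparison asked whether the expression of these channel genes differs between the hippocampus of injured and sham rats 3 months after surgery. None of the 8 reached the threshold of 0.05 after Benjamini-Hochberg adjustment over the 22431 rows fitted by edgeR's quasi-likelihood method, and neither did any other row (0%). The smallest adjusted p of all rows was 0.477, that of the members 0.589. With edgeR's exact test the smallest of all rows was 0.0578, so how near any row came depended on the test. The study's own edgeR list for this model holds many genes with an adjusted p under 0.05. No member passed with DESeq2 or limma voom either, and DESeq2 called 2 rows higher and 1 lower over the whole table. At the study's unadjusted threshold of 0.001, 0 of the 8 were called, against 0.196% of all rows. At an unadjusted p under 0.05, 1 of the 8 genes was called, Kcna2, lower in TBI, which is 12.5% of the members against 7.89% of all rows (4.89% higher and 3% lower). The sham and TBI rats overlapped for all 8 genes, and groups that do not overlap were found in 0.923% of all rows. The log2 change was below 0 for 5 members and above 0 for 3, with a median of -0.13. Over all rows tested, 52.2% were below 0 and the median was -0.01.

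**Figure D1:**
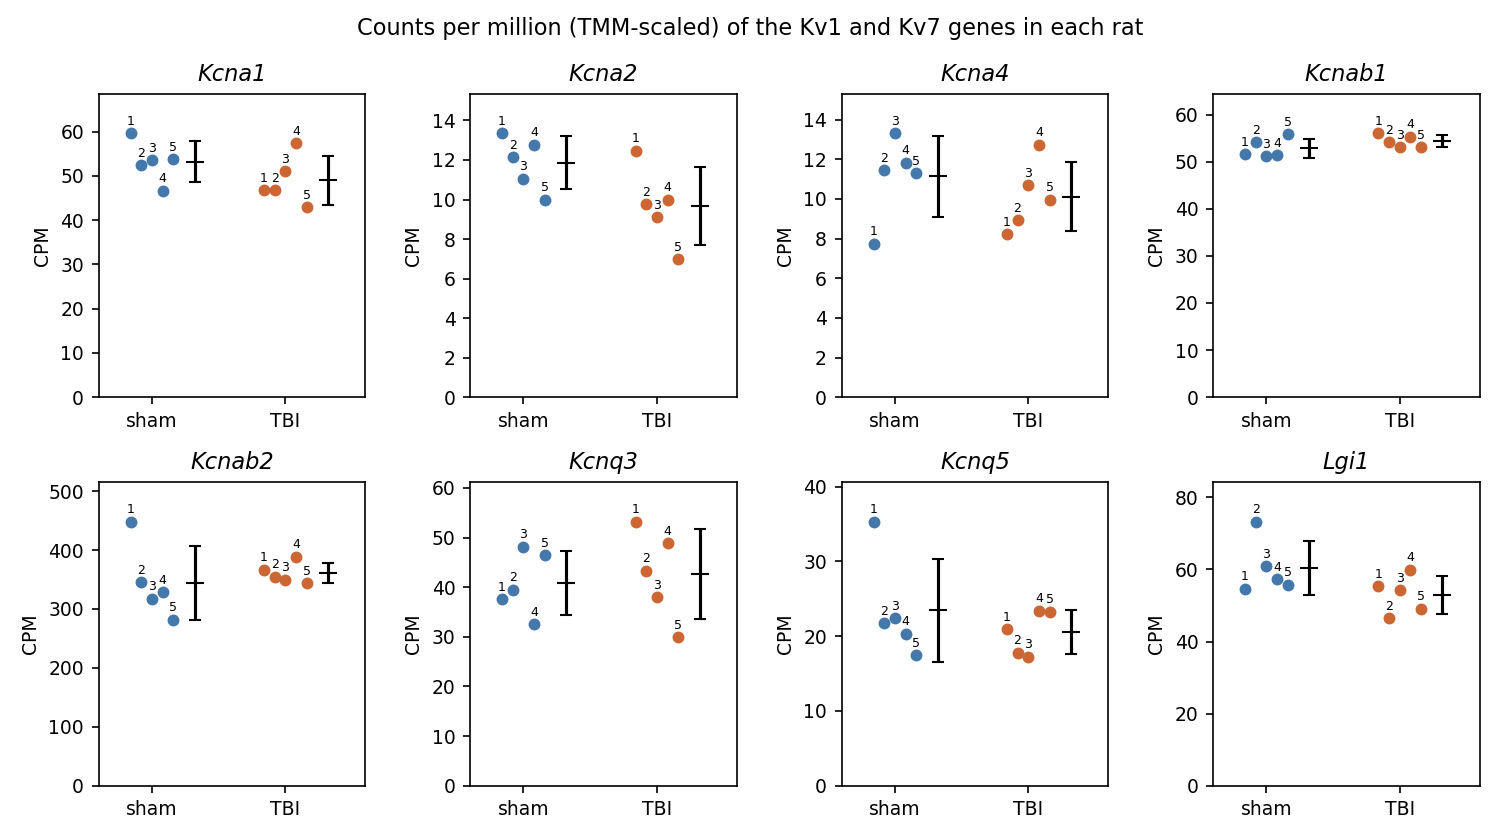
Level of each of the 8 genes in each rat. The vertical axes are CPM after TMM scaling, the points are single rats numbered by replicate (blue, sham; orange, TBI), and the bars are group means ± SD with 5 rats each. For every gene the sham and TBI rats overlap. Sham replicate 1 is apart from the other sham rats for Kcnq5, at 35.3 CPM, and Kcnab1 has the narrowest spread.

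Kcna1 encodes Kv1.1, the subunit mutated in episodic ataxia with myokymia (RefSeq record NM_173095). Its level was 59.7, 52.5, 53.5, 46.6 and 53.7 CPM in sham replicates 1 to 5 and 46.8, 46.8, 51.1, 57.4 and 42.9 CPM in TBI replicates 1 to 5. TBI replicate 5 was below every sham rat, while TBI replicate 4 was above all sham rats but 1. The group means were 53.2 CPM ± 4.63 (SD, n = 5) in sham and 49.0 CPM ± 5.50 (SD, n = 5) in TBI. This is a log2 change of -0.12 (SE 0.0875, 95% interval -0.30 to 0.06, edgeR adjusted p = 0.778). As a fold, the interval runs from 0.810 to 1.04 times the sham level.

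Kcna2 encodes Kv1.2, which assembles with Kv1.1 in axons (NM_012970). It was at 13.4, 12.1, 11.05, 12.8 and 10.0 CPM in the sham rats, in replicate order, and at 12.5, 9.77, 9.12, 9.99 and 6.99 CPM in the TBI rats. TBI replicates 2 to 5 were all below the lowest sham rat, sham replicate 5, replicate 4 narrowly so, and TBI replicate 1 was among the higher sham rats. Means were 11.9 CPM ± 1.35 (SD, n = 5) and 9.67 CPM ± 1.96 (SD, n = 5). The fold was 0.813 with a 95% interval of 0.674 to 0.980, a log2 change of -0.30 (SE 0.129), and this member had the smallest p of the 8 (edgeR adjusted p = 0.589). Its libraries held 160 to 430 counts of Kcna2, so counting error alone is 7.91% of the level at the lowest count, below the spread between rats of 11.4% in sham and 20.3% in TBI.

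The place of Kcna2 under the unadjusted threshold of 0.05 depended on single rats. It was lost without sham replicate 1, 2 or 4 and without TBI replicate 3 or 5, with log2 changes of -0.25, -0.29, -0.28, -0.28 and -0.20 in turn, and kept without any of the other 5, up to -0.41 without TBI replicate 1. Sham replicate 1 and TBI replicate 5 had the lowest levels of dentate granule cell markers, and without both the log2 change of Kcna2 was -0.16 and not under the threshold. These 2 were also the highest sham rat (13.4 CPM) and the lowest TBI rat (6.99 CPM) for Kcna2. Leaving them out therefore shrinks the difference whatever their marker levels. With the ribosomal RNA share as a covariate the log2 change of Kcna2 was -0.27, also not under the threshold. Over the 23 other ways of processing, its adjusted p ranged from 0.370 to 0.974.

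Kcna4 encodes Kv1.4, the Kv1 subunit whose own N-terminus inactivates the channel rapidly (NM_012971). Sham rats held 7.74, 11.5, 13.3, 11.8 and 11.3 CPM of it in replicate order, and TBI rats 8.23, 8.91, 10.7, 12.7 and 9.97 CPM. Sham replicate 1 was the lowest of all 10 rats, and 4 of 5 TBI rats were below the sham mean. With means of 11.1 CPM ± 2.06 (SD, n = 5) and 10.1 CPM ± 1.75 (SD, n = 5), the log2 change was -0.14 (SE 0.139, edgeR adjusted p = 0.860). Leaving out sham replicate 1 moved it to -0.25, with an unadjusted p just under 0.05.

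Kcnab1, which encodes Kvbeta1 (NM_017303), was the steadiest of the 8. Its level was 51.5, 54.1, 51.2, 51.4 and 55.9 CPM in the sham rats and 56.1, 54.1, 53.2, 55.3 and 53.1 CPM in the TBI rats. All 5 TBI rats were above the sham mean, yet 4 of them lay within the sham range. The spread between rats was 3.93% of the mean in sham and 2.43% in TBI, about the size of the counting error of 3.64% at its lowest count. The log2 change was 0.04 (SE 0.0668, 95% interval -0.10 to 0.18, edgeR adjusted p = 0.916), or 0.934 to 1.13 times the sham level under TMM scaling. Total count scaling gave a log2 change of 0.55.

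Kcnab2 encodes Kvbeta2, a Kvbeta that does not itself inactivate Kv1 channels (NM_017304). It was at 448, 345, 318, 328 and 282 CPM in sham replicates 1 to 5, and at 367, 355, 350, 389 and 344 CPM in TBI replicates 1 to 5. The 5 TBI rats lay inside the sham range, between sham replicate 5 below and sham replicate 1 far above. The means were close, 344 CPM ± 62.7 (SD, n = 5) and 361 CPM ± 17.7 (SD, n = 5), while the spread was 18.2% of the mean in sham and 4.89% in TBI, a difference in spread that was not tested. The log2 change was 0.07 (SE 0.102, edgeR adjusted p = 0.907). Without sham replicate 1 it was 0.18 and under an unadjusted p of 0.05, and with the ribosomal RNA share as a covariate it was -0.052, so neither its size nor its sign was stable.

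Kcnq3 encodes Kv7.3, which joins other Kv7 subunits in M channels and is mutated in familial neonatal seizures (NM_031597). Its values were 37.6, 39.5, 48.2, 32.6 and 46.5 CPM in sham rats and 53.2, 43.3, 38.02, 48.8 and 29.96 CPM in TBI rats. The TBI rats spanned more than the sham rats at both ends: replicates 1 and 4 were above every sham rat and replicate 5 was below every one. Means were 40.9 CPM ± 6.44 (SD, n = 5) and 42.7 CPM ± 9.12 (SD, n = 5), a log2 change of 0.06 (SE 0.144, edgeR adjusted p = 0.948). The sign turned when either of 2 rats was left out, to -0.01 without sham replicate 4 and -0.032 without TBI replicate 1.

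Kcnq5 encodes Kv7.5 (NM_001134643). It was at 35.3, 21.7, 22.4, 20.3 and 17.5 CPM in the sham rats and at 20.9, 17.8, 17.3, 23.4 and 23.3 CPM in the TBI rats. All 5 TBI rats were below the sham mean of 23.5 CPM ± 6.90 (SD, n = 5), but that mean was raised by sham replicate 1, and the other 4 sham rats covered much the same range as the TBI rats, whose mean was 20.5 CPM ± 2.92 (SD, n = 5). The log2 change was -0.20 (SE 0.166, edgeR adjusted p = 0.814). Without sham replicate 1 it was -0.0061. It was -0.42 with the ribosomal RNA share as a covariate and -0.36 without the 2 sham rats rich in ribosomal RNA, a fit in which sham replicate 1 is 1 of 3 sham rats, and both of these were under an unadjusted p of 0.05. Its adjusted p ranged from 0.488 to 0.996 over the 23 other ways of processing.

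Lgi1, the gene of autosomal dominant lateral temporal epilepsy, encodes a protein that links ADAM22 to ADAM23 across the synaptic cleft and alters Kv1 channels (NM_145769). It was at 54.7, 73.3, 60.9, 57.2 and 55.8 CPM in sham replicates 1 to 5 and at 55.3, 46.4, 54.3, 59.9 and 49.1 CPM in TBI replicates 1 to 5. All 5 TBI rats were below the sham mean and 3 were below every sham rat, with TBI replicate 4 the highest of its group, inside the sham range. Means were 60.4 CPM ± 7.58 (SD, n = 5) and 53.0 CPM ± 5.31 (SD, n = 5), a log2 change of -0.19 (SE 0.0925, 95% interval -0.38 to 0.00436, edgeR adjusted p = 0.637). Sham replicate 2 was the highest of all rats, and without it the log2 change was -0.11. The unadjusted p was not under 0.05 with all rats, and came under it without sham replicate 1, sham replicate 5 or TBI replicate 4, with log2 changes of -0.23, -0.22 and -0.24, and without both ribosomal-rich sham rats, at -0.24.

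**Figure D2:**
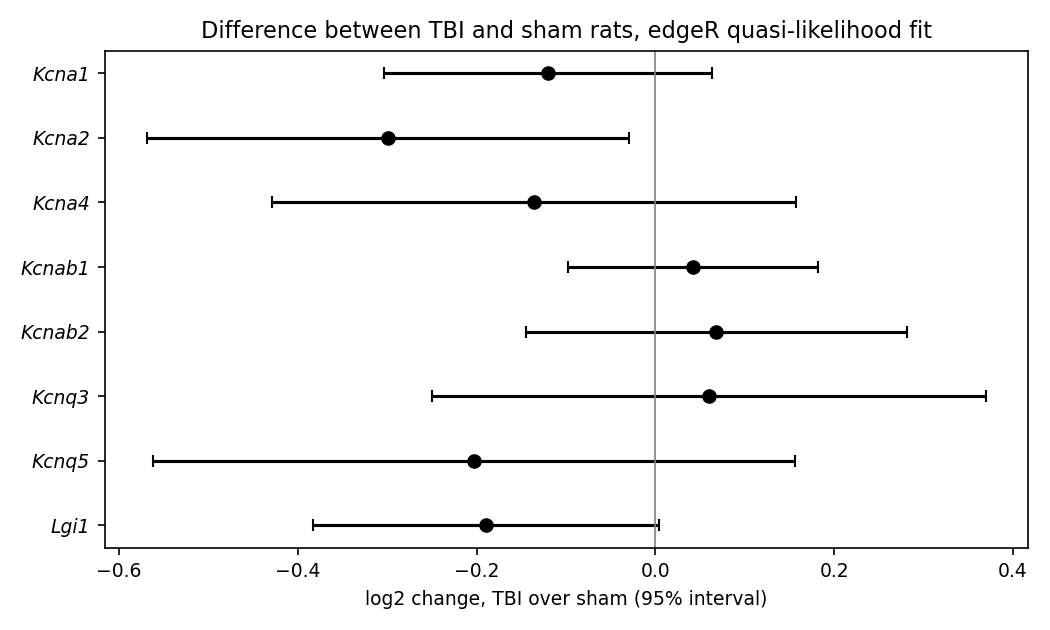
Difference between TBI and sham rats for each gene. The horizontal axis is the log2 change of TBI over sham from edgeR's quasi-likelihood fit, the points are estimates from 5 sham and 5 TBI rats, and the bars are 95% intervals. The interval of Kcna2, -0.57 to -0.03, is the only one that leaves out 0, before any adjustment for the number of rows.

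A few rats held most of the extremes. TBI replicate 4 was the highest TBI rat for 5 of the 8 genes and TBI replicate 5 the lowest for 5. Sham replicate 1 was the highest sham rat for 4 genes and the lowest for 2, and sham replicate 5 was the lowest for 3. TBI replicate 5 had the lowest ribosomal RNA share of all libraries, at 12.5%.

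The sign of the level difference changed with total count scaling for Kcna1, Kcna2, Kcna4, Kcnq5 and Lgi1. When counts were divided by total counts, ribosomal RNA included, the median log2 change of all rows was 0.50 instead of -0.01, and all 8 genes had values above 0, from 0.18 for Kcna2 to 0.55 for Kcnab1. Relative to that median the values were -0.14 for Kcna1, -0.32 for Kcna2, -0.13 for Kcna4, 0.05 for Kcnab1, 0.03 for Kcnab2, 0.03 for Kcnq3, -0.26 for Kcnq5 and -0.22 for Lgi1. Each of these has the sign it had under TMM scaling. Subtracting the median centres the rows near 0, much as TMM scaling does, so the shared sign is no separate check.

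**Figure D3:**
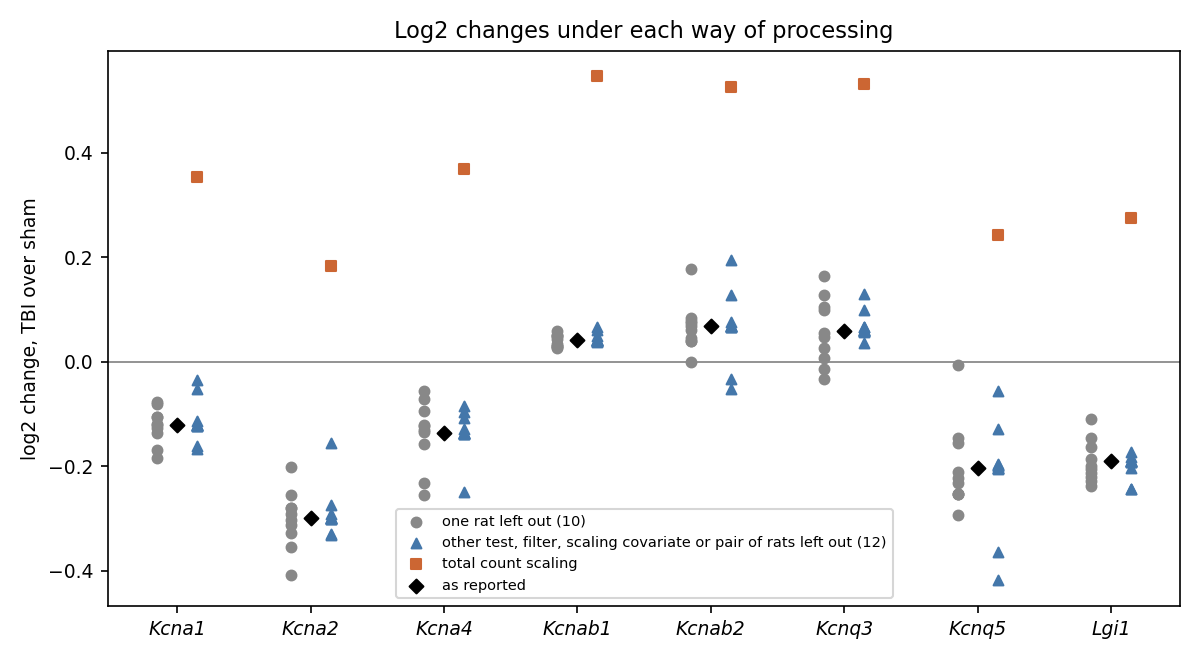
Log2 change of each gene under each way of processing. The vertical axis is the log2 change of TBI over sham; black diamonds are the reported fits, grey circles leave out 1 rat each, blue triangles are other tests, filters, scalings, a covariate or a pair of rats left out, and orange squares are total count scaling. The orange squares are above 0 for all 8 genes. Apart from them, Kcna1, Kcna2, Kcna4, Kcnq5 and Lgi1 stay below 0 and Kcnab1 above 0, while Kcnab2 and Kcnq3 have values on both sides.

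Ratios between genes within a rat do not depend on the scaling of the library. They are ratios of mRNA counts without correction for transcript length. They can be compared between groups but do not give the balance of channel proteins. All but Lgi1/Kcna1 pair subunits of the same kind. The ratio of 2 genes was taken as log2 of their counts with 0.5 added, and the difference in group means was set against every way of labelling the rats (exact permutation test, two-sided), adjusted over 5 ratios. None passed an adjusted p of 0.05, each with an adjusted p of 0.651. A ratio alone in its family could have reached 0.0397.

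The Kcna1/Kcna2 ratio, of the subunits that meet in axonal Kv1 channels, was 2.16, 2.11, 2.27, 1.86 and 2.42 in the sham rats and 1.91, 2.26, 2.48, 2.52 and 2.62 in the TBI rats. TBI replicates 3 to 5 were above every sham rat and TBI replicate 1 was near the bottom of the sham range. The means differed by 0.19 (2.17 ± 0.207 against 2.36 ± 0.284, SD, n = 5; exact permutation p = 0.262). For Kcna4/Kcna2 the means were -0.11 ± 0.414 and 0.07 ± 0.443 (SD, n = 5; exact permutation p = 0.508), with replicate 1 the lowest rat in both groups.

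Kvbeta1 and Kvbeta2 compete for the same site on Kv1 channels. The Kcnab1/Kcnab2 ratio was -3.12, -2.67, -2.63, -2.67 and -2.33 in sham replicates 1 to 5, and -2.71, -2.71, -2.72, -2.81 and -2.70 in TBI replicates 1 to 5. The 5 TBI rats were within a narrow band inside a wide sham range set by sham replicates 1 and 5 (SD 0.0467 against 0.281, n = 5; the difference in spread was not tested). The difference in means was -0.04 (exact permutation p = 0.651). Without sham replicate 1, every one of the TBI rats was below the remaining sham rats and the difference was -0.15 (exact permutation p = 0.00794, the smallest that test can give, adjusted p = 0.0397). Without sham replicate 5 it was 0.045 and without the 2 sham rats rich in ribosomal RNA 0.079, so its size and sign depend on which sham rats are included.

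The Kcnq3/Kcnq5 ratio, of the Kv7 subunits that can share a channel, was 0.09, 0.86, 1.10, 0.68 and 1.41 in sham rats and 1.35, 1.28, 1.14, 1.06 and 0.36 in TBI rats. Sham replicate 1 and TBI replicate 5 were the lowest of the 10, and without them the groups still overlapped. The means were 0.83 ± 0.495 and 1.04 ± 0.393 (SD, n = 5; exact permutation p = 0.484). Lgi1/Kcna1 was 0.18 ± 0.231 in sham and 0.11 ± 0.102 in TBI (SD, n = 5; exact permutation p = 0.587).

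**Figure D4:**
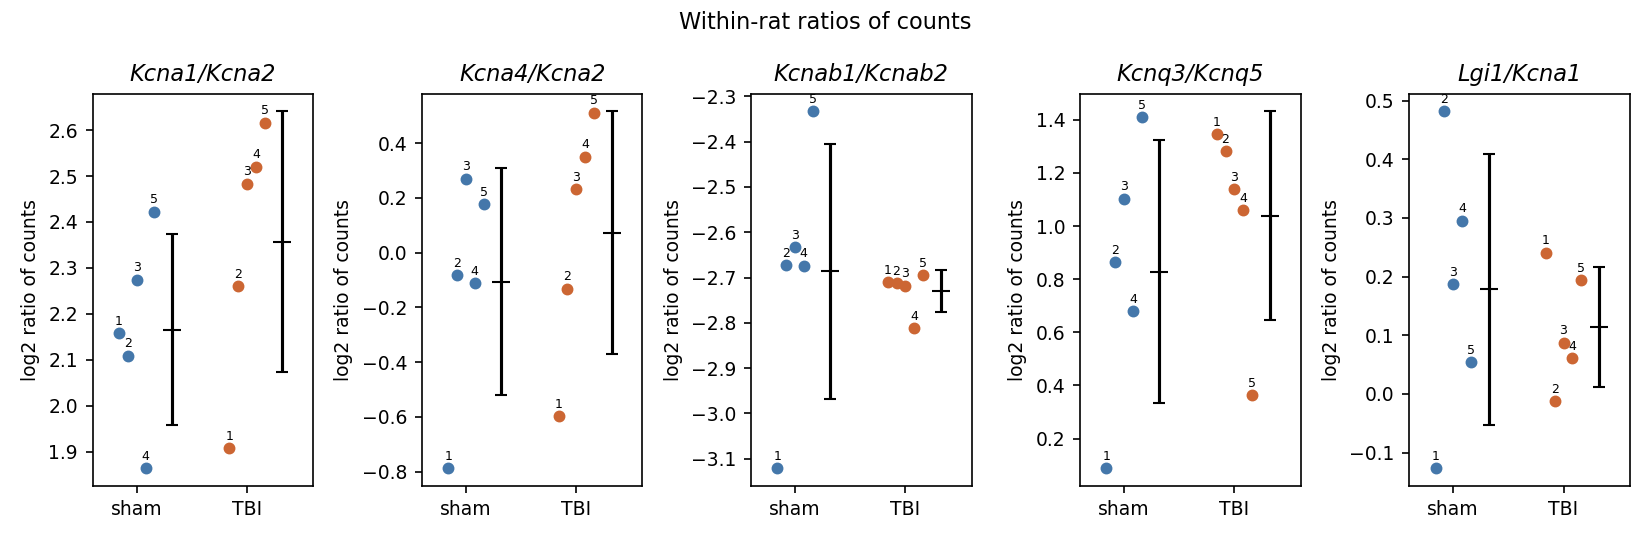
Log2 ratio of counts of 2 genes in each rat, for 5 pairs of genes. Points are single rats numbered by replicate (blue, sham; orange, TBI) and bars are group means ± SD with 5 rats each. The groups overlap in each panel; the TBI rats are close together for Kcnab1/Kcnab2, from -2.81 to -2.70, against -3.12 to -2.33 in sham.

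The cell types in the dissected piece were checked with marker lists. Neuron markers summed to 3491 to 4316 CPM in sham and 3267 to 3905 CPM in TBI, and no tested marker of any list had a zero count in any rat. GABAergic neuron markers had log2 changes below 0 in 8 of 8 genes, against 52.2% of all rows. Of the 8, 3 had an unadjusted p under 0.05, against 3% of all rows in that direction. Their summed level was 191 to 266 CPM in sham and 139 to 225 CPM in TBI (mean log2 difference -0.34). Astrocyte and microglia markers had mean log2 differences of 0.29 and 0.22. In each of these 2 lists 5 of 6 genes were above 0, against 10726 of 22431 rows. In each, 2 had an unadjusted p under 0.05, against 4.89% of all rows in that direction. Astrocyte genes ran from -0.00094 (Slc1a3) to 0.82 (Gfap) and microglia genes from -0.01 to 0.34. TBI replicate 3 was low in both lists, at -0.18 and -0.20 on the centred log2 scale. Oligodendrocyte markers, of the cells whose myelin borders Kv1-rich juxtaparanodes, summed to 2555 to 3671 CPM in sham and 2628 to 3507 CPM in TBI (mean log2 difference 0.02). CA1 markers, which the dissection would leave out, ranged from 67.8 to 146 CPM in sham and from 47.7 to 500 CPM in TBI. Their mean log2 difference was 0.85, the largest of the lists. Of the 4 genes, 4 were above 0 and 1 had an unadjusted p under 0.05, against 4.89% of all rows in that direction. The part of these lists in the channel values was not tested.

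Dentate granule cell markers varied widely within both groups. Their summed level was 63.7 to 210 CPM in sham and 81.0 to 200 CPM in TBI, and sham replicate 1 and TBI replicate 5 were the lowest of each group, at -1.03 and -0.75 on the centred log2 scale, with the other 8 rats between -0.03 and 0.58. The same 2 rats had the lowest Kcnq3/Kcnq5 ratios. They stand apart from the other 8, so no correlation over all rats is given.

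**Figure D5:**
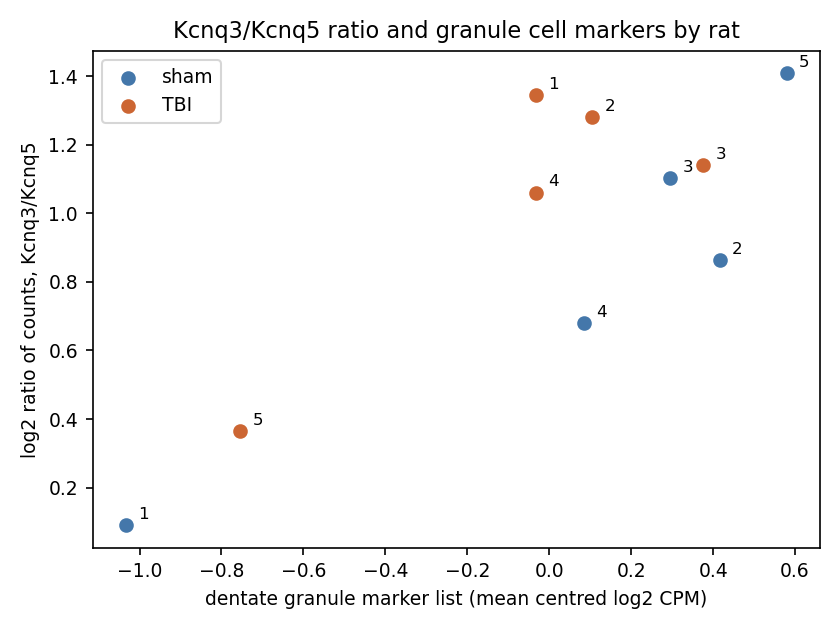
Kcnq3/Kcnq5 ratio against the level of dentate granule cell markers. The horizontal axis is the mean centred log2 CPM of the marker list, the vertical axis the log2 ratio of counts, and the points are the 10 rats (blue, sham; orange, TBI). Sham replicate 1 and TBI replicate 5 lie at the lower left, at ratios of 0.09 and 0.36, apart from the other 8 rats.

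When each gene was set against the mean of the 10 neuron markers in the same rat, 0 of 8 differed (two-sided exact permutation test, adjusted p from 0.698 to 0.770). A gene alone could reach no less than 0.0635 after adjustment, so the test could pass only for several genes together. The differences were -0.25 for Kcna2, -0.12 for Lgi1, -0.10 for Kcnq5, -0.07 for Kcna4, -0.06 for Kcna1, 0.10 for Kcnab1, 0.11 for Kcnq3 and 0.15 for Kcnab2. With the GABAergic list as the reference instead, all 8 were above 0, at 0.03 for Kcna2 and up to 0.42 for Kcnab2.

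Covariation from rat to rat was described with deviations from the group means over the 10 rats, for the 28 pairs of members. No pair passed an adjusted p of 0.05. Kcnab2 and Kcnq5 had a Pearson r of 0.873 (permutation p = 0.0130, adjusted p = 0.312) and a Spearman rho of 0.612 (permutation p = 0.0709, adjusted p = 0.896). Without sham replicates 1 and 5, the rats farthest out in Kcnab2, r was 0.382. Kcna2 and Kcnab2 had r = 0.537 (permutation p = 0.0223, adjusted p = 0.312) and rho = 0.794 (permutation p = 0.00803, adjusted p = 0.225), and r was 0.839 without TBI replicates 1 and 5. Without the 2 rats rich in ribosomal RNA the 2 values of r were 0.806 and 0.475.

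The gene whose deviations were most like those of each member was sought among 8276 symbols with a mean of at least 5 CPM, as a description over the 10 rats. It was Tmem114 for Kcna1 (r = 0.906), Vps13b for Kcna2 (0.957), Tmem125 for Kcna4 (0.960) and Qki for Kcnab1 (0.960). It was Trub2 for Kcnab2 (r = 0.981), Wdr81 for Kcnq3 (0.931), St6gal1 for Kcnq5 (0.976) and Ptbp2 for Lgi1 (0.923). The highest of 8276 values over 10 rats is large by selection, and none of the 8 was another channel of the lists used here.

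Of the rest of the Kv1 and Kv7 family, 6 of 9 genes were tested, with log2 changes from -0.54 to 0.04. Of these 6, 0 had an unadjusted p under 0.05, against 7.89% of all rows. Kcna6, another brain Kv1 subunit, had a log2 change of -0.02 (SE 0.0939). Kcna3 was at 2.46 CPM ± 0.811 (SD, n = 5) in sham and 1.94 CPM ± 0.462 (SD, n = 5) in TBI, a log2 change of -0.32 (edgeR adjusted p = 0.755). Kcna7 was at -0.54 on at most 17 counts a library, and Kcna5 at 0.04. Kcna10 and Kcnq1 did not pass the filter.

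Among 11 tested genes for proteins that place Kv1 channels or belong to the LGI and ADAM families, 1 was higher and 1 lower at an unadjusted p under 0.05. That is 18.2% of the 11, against 7.89% of all rows (4.89% higher and 3% lower). Lgi4, made by glia and needed for peripheral myelination, was 62.8 CPM ± 9.81 (SD, n = 5) in sham and 85.9 CPM ± 11.9 (SD, n = 5) in TBI, with 52.8 to 79.1 CPM in sham and 66.8 to 95.7 CPM in TBI. Its log2 change of 0.45 (SE 0.111) had an adjusted p of 0.477 (edgeR). Lgi4 is also in the study's list of altered genes in this model, which is no independent evidence of its direction, since the study's samples and these overlap. In that list its adjusted p was under 0.05, while edgeR's exact test on these rats gave an adjusted p of 0.104. The methods of the study give 3 sham rats for mRNA profiling in this model, while the labels and the count matrix hold the 5 used here. The paper's clustering over all its models counts more control samples than its methods add up to. How many sham rats its test used is therefore not settled. Lgi2, another neuronal LGI, was 2.52 CPM ± 0.484 (SD, n = 5) in sham and 1.71 CPM ± 0.527 (SD, n = 5) in TBI, a log2 change of -0.54 (SE 0.211) (adjusted p = 0.555, edgeR). Adam23, the LGI1 receptor that was measured, was at -0.16, as was the scaffold Dlg2, while Cntn2, which holds Kv1 channels at juxtaparanodes, was at 0.13. Cntnap2 and Adam22 had no named row.

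Of 11 tested genes for proteins that bind, place or regulate Kv7 channels, 0 had an unadjusted p under 0.05, against 7.89% of all rows. Ank3, which anchors Kv7 channels at the axon initial segment, was at 117 CPM ± 12.6 (SD, n = 5) in sham and 120 CPM ± 9.78 (SD, n = 5) in TBI, a log2 change of 0.03. Calm2, 1 of the calmodulin genes, whose protein is bound to Kv7 channels, was at -0.12, and the accessory subunits Kcne4 and Kcne2 at 0.25 and -0.16. Kcne3 did not pass the filter. The family and partner lists together had 28 tested genes, of which 7.14% had p under 0.05, against 7.89% of all rows.

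The other voltage-gated potassium channel genes gave the members' values a wider frame. Of 27 tested, 0 were higher and 4 lower at an unadjusted p under 0.05 (14.8%, against 7.89% of all rows and 3% lower), 21 were below 0 and the median log2 change was -0.09; 0 passed an adjusted p of 0.05. The count of 4 was 1 with the ribosomal RNA share as a covariate or with total count scaling. It was also 1 without the 2 sham rats rich in ribosomal RNA, without sham replicate 1 and without TBI replicate 1. It was 2 with limma voom, without TBI replicate 2 or without the 2 granule-poor rats. Over the whole table, 672 rows were lower as reported, 443 with the covariate and 26 with total count scaling. Without the 2 sham rats rich in ribosomal RNA 515 were lower, without sham replicate 1 879 and without TBI replicate 1 769. With limma voom 760 were lower, without TBI replicate 2 554 and without the 2 granule-poor rats 736. Kcnd3, an A-type channel subunit of the Kv4 family, was 12.0 to 14.1 CPM in sham and 7.95 to 11.1 CPM in TBI, without overlap, as in 0.424% of all rows in that direction. Its means were 13.2 CPM ± 0.811 (SD, n = 5) and 9.69 CPM ± 1.17 (SD, n = 5), a log2 change of -0.44 (SE 0.0984) (adjusted p = 0.477, edgeR). Kcnd3 is in the study's own list as well, with an adjusted p under 0.05 there and the same limit. Kcnc2, a Kv3 subunit of fast-spiking interneurons, was 17.1 CPM ± 2.87 (SD, n = 5) in sham and 13.6 CPM ± 2.56 (SD, n = 5) in TBI, at -0.33 (adjusted p = 0.569, edgeR). Kcnd1 and Kcns3 were at -0.26 and -0.24, and Kcng4 at 0.08. GABAergic markers also had log2 changes below 0, and their part in these values was not tested.

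Calcium- and sodium-activated, inward rectifier and leak potassium channels had 33 tested genes, of which 1 was higher and 1 lower at an unadjusted p under 0.05 (6.06%, against 7.89% of all rows). The count of 2 was 0 with the ribosomal RNA share as a covariate or without sham replicate 2, and 5 with total count scaling. Over the whole table, 1097 rows were higher and 672 lower as reported. These were 548 and 443 with the covariate, 733 and 429 without sham replicate 2, and 3762 and 26 with total count scaling. Kcnma1, the large-conductance calcium-activated channel, was 36.6 CPM ± 2.26 (SD, n = 5) in sham and 31.7 CPM ± 4.26 (SD, n = 5) in TBI, a log2 change of -0.21 (SE 0.0918) (adjusted p = 0.604, edgeR). Kcnn4 was at 1.21 on 1 to 13 counts a library. Kcnj10, the inward rectifier of astrocytes, was at 0.17 and Kcnk15 at -0.22.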

How the data were processed

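Poly-A selected RNA of 5 sham and 5 TBI rats was sequenced. The authors aligned the reads to the rat rn4 assembly with BWA and deposited raw counts per RNA record, not normalized, 1 column per rat. Their methods name Ensembl transcripts, but the rows are RefSeq records; counting was not stated to use strand, and reads of overlapping or similar transcripts are uncertain. Of 32043 rows, 2 (an empty name and unmapped reads) were left out. Unmapped reads were 12.8 to 26.1% per library. Symbols came from a RefSeq table of assembly GRCr8, used for names only (54.2% of records matched), so no coordinates are given.

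Rows with a total of at least 44 counts, the 30th percentile, were kept (22431). TBI and sham were compared in R 4.3.3 with edgeR 4.0.16 (glmQLFit and glmQLFTest, robust, TMM scaling), fitted on all rows, two-sided, with Benjamini-Hochberg adjustment; the procedure was tested on simulated data. Log2 CPM used a prior count of 2. Exact permutation tests over rats enumerated every split in Python 3.11.15 with numpy 2.4.6. Correlations used 100000 permutations within groups, with ranks from scipy 1.17.1. Alternatives were DESeq2 1.42.0, limma 3.58.1 with voom, other edgeR tests, scalings and filters, rows summed per symbol, a ribosomal RNA covariate, and leaving out rats; the fit without the 2 rats lowest in granule cell markers was chosen after seeing the data.

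Named were all members, the 2 genes with the smallest p in each direction of each list, any gene past the adjusted threshold, and the symbol most like each member. Kcnd1, Kcns3, Kcna6 and Adam23 are outside this rule and were chosen after their values were seen. Some genes of the lists are not reported here by name. The members and lists were chosen with earlier results of these data known. P-values set a group difference or a correlation against the variation between rats.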

Additional observations from a re-analysis of the deposited data

Results flagged for a closer look

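In each group of 5 rats, the highest and lowest values of the members, their ratios and related measures were compared with the rest of the group by Dixon's 95% criterion. Of 28 groups examined, 3 held such a rat, and chance gives about 1.4. The Kcnq5 level of sham replicate 1 was 35.3 CPM, and the other sham rats were at 17.5 to 22.4 CPM. The log2 Kcnab1/Kcnab2 ratio of TBI replicate 4 was -2.81, with the other TBI rats from -2.72 to -2.70, a small distance in a narrow group. The log2 Kcnq3/Kcnq5 ratio of TBI replicate 5 was 0.36, with the other TBI rats from 1.06 to 1.35. Sham replicate 1 and TBI replicate 5 were also the rats lowest in dentate granule cell markers, and the part of those markers in the values was not tested.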

How the results depend on the processing

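No member passed an adjusted p of 0.05 under any of the 23 alternatives, with adjusted p from 0.274 to 1.00 over members and settings. Members with an unadjusted p under 0.05 numbered 1 as reported, 0 with total count scaling, 3 without the 2 sham rats rich in ribosomal RNA and 0 to 3 when 1 rat was left out (0 without sham replicates 2 or 4 or TBI replicates 3 or 5, 3 without sham replicate 1). Family and partner genes numbered 2 as reported, 1 with total count scaling, the ribosomal covariate or without the 2 ribosomal-rich rats, and 1 to 3 with 1 rat left out. Other voltage-gated channels numbered 4 as reported, 2 with limma voom or without the 2 granule-poor rats, 1 with total count scaling, the covariate or without the ribosomal-rich rats, and 1 to 4 with 1 rat left out. Other potassium channels numbered 2 as reported, 5 with total count scaling, 0 with the covariate, 1 with DESeq2, limma voom, filterByExpr or without either pair of rats, and 0 to 3 with 1 rat left out. The whole table of 22431 rows moved as well, from 1097 rows higher and 672 lower at this threshold as reported. It gave 3762 and 26 with total count scaling and 548 and 443 with the covariate. Without the ribosomal-rich rats it gave 741 and 515. With 1 rat left out, 733 to 1577 were higher and 429 to 989 lower. Within-rat ratios past an adjusted p of 0.05 numbered 0, and 0 to 1 with 1 rat left out.

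Of 184 recomputed log2 changes 9 turned sign. Total count scaling gave 0.35 for Kcna1, 0.18 for Kcna2, 0.37 for Kcna4, 0.24 for Kcnq5 and 0.27 for Lgi1, as it counts ribosomal RNA as library size. Kcnab2 was -0.052 with the covariate and -0.033 without the ribosomal-rich rats. With 1 rat left out, Kcnq3 ran from -0.032 (without TBI replicate 1) to 0.16, and was also below 0 without sham replicate 4. Of 70 ratios 4 turned: Kcnab1/Kcnab2 to 0.079 without the ribosomal-rich rats and within -0.15 to 0.045 with 1 rat left out (above 0 without sham replicate 5), Lgi1/Kcna1 within -0.14 to 0.012 (above 0 without sham replicate 2), and Kcna4/Kcna2 to -0.10 without the granule-poor rats. Of 120 levels relative to neuron markers 11 turned. With GABAergic markers as the reference they were 0.21 for Kcna1, 0.026 for Kcna2, 0.20 for Kcna4, 0.18 for Kcnq5 and 0.15 for Lgi1. Kcna1 was 0.0026 without the granule-poor rats and Kcna4 0.0029 without the ribosomal-rich rats. With 1 rat left out, Kcna1 ran from -0.10 to 0.0092 (without TBI replicate 5), Kcna4 from -0.24 to 0.014 (sham replicate 3), Kcnq3 from -0.0087 (TBI replicate 1) to 0.25 and Kcnq5 from -0.18 to 0.012 (sham replicate 1). The causes were not tested.

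No paired analysis was possible because the replicate numbers follow sample order and do not pair rats. Kcna2 had 160 to 430 counts a library, and its counting error was below the spread between rats. With 5 rats a group and the intervals given, a change of the size seen cannot be told from none after adjustment over all rows.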
